A study of Mus musculus with 13 samples.

Results

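The 6 genes described here, Mbd1, Mbd2, Mbd4, Zbtb33, Zbtb4 and Zbtb38, encode proteins that bind methylated CpG sites in DNA. They were chosen by symbol from the 26797 genes listed in the replicate libraries and by the same Ensembl identifiers from the 49671 genes listed for the single libraries. All 6 were present in both tables and all 6 passed the filters on low values. RNA was sequenced from mouse embryonic stem (ES) cells. Untreated wild-type cells of the AinV15 line (WT, 3 libraries) were compared with untreated cells of the D1-null strain carrying the C allele of Dnmt1 (Dnmt1_null, 3 libraries). Dnmt1 is the maintenance DNA methyltransferase. The wild-type and null cells are separate ES lines, so that genotype and line cannot be told apart. A second table held 1 library each of WT and Dnmt1_null cells and of AinV15 cells expressing dCas9-OGA or dCas9-OGA-D242A. The WT and Dnmt1_null columns of that table carry only the name of their group and match no labelled sample of their own, so that every value from them rests on the column name. In the dCas9 pair, catalytically dead Cas9 was fused to O-GlcNAcase (OGA), which removes O-linked N-acetylglucosamine (O-GlcNAc) from proteins, or to OGA with the D242A substitution, which inactivates the enzyme. Both fusions were expressed with 4 single guide RNAs against the U3 promoter of IAP retrotransposons, under 1 µg/ml doxycycline for 48 h. The 5 ChIP-seq libraries of the series, taken from wild-type cells, were not used here.

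Methyl-CpG binding proteins translate DNA methylation into transcriptional effects. The MBD proteins recognise a symmetrically methylated CpG through a shared methyl-CpG binding domain. MBD1 and MBD2 are repressors that recruit histone-modifying complexes, and MBD2 is a subunit of the NuRD remodelling and deacetylase complex. MBD4 instead is a DNA glycosylase that removes thymine or uracil from G:T and G:U mismatches left by deamination at CpG sites. The Kaiso family proteins, ZBTB33 (Kaiso), ZBTB4 and ZBTB38, bind methylated DNA through zinc fingers and carry a BTB domain. The comparison of WT with Dnmt1_null cells asks how the genes for these readers are expressed when the mark they read is lost. The comparison of dCas9-OGA with its inactive form asks what else differs between cells with the active and the inactive enzyme at IAP promoters. Each fusion was inserted into AinV15 cells that were then selected, so that fusion and derived line cannot be told apart.

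Promoter sequence is shown for 4 of the genes, since CpG sites are where DNA methylation can occur. Whether the sites shown are methylated in WT cells is not known from these data. Mbd1 and Mbd2 had no matching window and are left out. Each window is the 250 bases before a RefSeq start (GRCm38.p6), written 5' to 3' on the gene's strand, with every CG in capitals. They lie at chr6:115853342-115853591 for Mbd4 (minus strand), chrX:38189543-38189792 for Zbtb33 (plus), chr11:69765662-69765911 for Zbtb4 (plus) and chr9:96719851-96720100 for Zbtb38 (minus). For Zbtb38, which had 3 windows in the table, the window with the most CG is printed.
Mbd4: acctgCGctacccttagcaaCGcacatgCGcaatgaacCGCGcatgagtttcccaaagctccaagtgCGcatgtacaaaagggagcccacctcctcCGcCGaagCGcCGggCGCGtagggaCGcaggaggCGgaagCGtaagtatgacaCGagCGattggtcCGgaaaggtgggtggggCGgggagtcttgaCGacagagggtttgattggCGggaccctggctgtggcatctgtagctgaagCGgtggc
Zbtb33: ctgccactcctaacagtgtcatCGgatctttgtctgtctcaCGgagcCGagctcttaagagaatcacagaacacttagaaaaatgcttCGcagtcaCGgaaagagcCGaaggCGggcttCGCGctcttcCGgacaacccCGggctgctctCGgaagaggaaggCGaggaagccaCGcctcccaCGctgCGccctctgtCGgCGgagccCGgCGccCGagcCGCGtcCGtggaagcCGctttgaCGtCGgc
Zbtb4: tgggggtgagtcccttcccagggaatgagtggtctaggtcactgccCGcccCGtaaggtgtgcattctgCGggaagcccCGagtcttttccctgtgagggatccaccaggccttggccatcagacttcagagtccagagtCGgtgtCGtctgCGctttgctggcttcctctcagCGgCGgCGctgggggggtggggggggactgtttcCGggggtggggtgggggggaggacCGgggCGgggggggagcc
Zbtb38: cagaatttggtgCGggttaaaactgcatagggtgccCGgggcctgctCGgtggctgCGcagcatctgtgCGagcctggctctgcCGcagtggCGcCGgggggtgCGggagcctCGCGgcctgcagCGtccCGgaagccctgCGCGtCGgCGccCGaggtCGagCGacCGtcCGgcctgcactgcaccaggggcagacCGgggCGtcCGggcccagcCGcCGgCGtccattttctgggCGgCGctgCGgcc

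The printed windows held 22 CG in Mbd4, 27 in Zbtb33, 13 in Zbtb4 and 31 in Zbtb38, against a median of 6 over 32851 windows of the same length. The Zbtb4 window was the poorest in CG of the 4, and its ratio of observed to expected CG was 0.487, against 0.951 for Mbd4, 1.11 for Zbtb33 and 0.912 for Zbtb38. The other Zbtb38 windows held 23 and 6 CG, with ratios of 0.760 and 0.610. The run CGCG, which overlaps the CG count, occurred 2 times each in the printed Mbd4, Zbtb33 and Zbtb38 windows and 0 times in that of Zbtb4, and 33.8% of all windows held it. The other Zbtb38 windows held it 4 and 0 times, so that the contrast with Zbtb4 depends on which Zbtb38 window is taken. The unmethylated recognition sequence of Kaiso, TCCTGCNA, was searched on both strands and had 0 matches in the 4 windows, while 4.03% of all windows held a match. Methylation itself was not measured in these files.

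In the GRCm38 annotation, Mbd1 (ENSMUSG00000024561) lies on chromosome 18 from 74267605 to 74282732 and Mbd2 (ENSMUSG00000024513) on the same chromosome from 70568189 to 70626131, both on the plus strand. Mbd4 (ENSMUSG00000030322) spans 115840697 to 115853371 of chromosome 6 on the minus strand. Zbtb33 (ENSMUSG00000048047) spans 38189793 to 38197046 of chromosome X on the plus strand. Zbtb4 (ENSMUSG00000018750) spans 69765912 to 69784023 of chromosome 11 on the plus strand. Zbtb38 (ENSMUSG00000040433) spans 96682770 to 96752831 of chromosome 9 on the minus strand. Exons of Zbtb33 shared 474 bases with Tmem255a on the opposite strand, and exons of Mbd4 shared 264 bases with the antisense gene Gm44206. In the replicate libraries Tmem255a stayed between 0.164 and 0.682 normalised units and Gm44206 between 0 and 0.131, far under the levels of their partners.

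The replicate libraries held between 26846275 and 37112247 reads on genes, and the single libraries between 18693531 and 25097983. Values of the replicate libraries are read counts divided by a scaled library size, here called normalised values, and were recovered as whole reads in every library. Dnmt1 itself averaged 335.5 normalised units in WT and 75.5 in Dnmt1_null replicates. In the single libraries, given in cpm (counts scaled to library size with TMM factors), it had 460 cpm in WT and 61.9 cpm in Dnmt1_null cells. ES cell markers were high in every replicate library, with summed levels of 3011 to 3107 in WT and 2792 to 2877 in Dnmt1_null cells. Of the 5 listed, 3 fell. Nanog and Zfp42 were not called, though each was higher in all Dnmt1_null than in all WT libraries. In these marker counts, fell and rose mean called by the test given below, which called 35.4% of all genes lower and 35.8% higher. Markers of other cells also differed. All 5 fibroblast markers fell in Dnmt1_null cells, with summed levels of 1022 to 1480.0 in WT and 245 to 273 in Dnmt1_null libraries, and the collagen gene Col1a1 lay between 119 and 133 even in the latter. Of the 2-cell-like state markers, 4 of 6 fell (summed levels 260 to 280 against 113 to 129), and 4 of 5 primitive endoderm markers rose (98.8 to 104 against 125 to 132). The part of these differences in the results on the 6 genes was not tested. In bulk RNA, fewer cells of a type and less RNA per cell cannot be told apart.

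Transcripts of 4 of the 6 genes were lower in Dnmt1_null than in WT cells, 1 was higher and 1 did not pass the test. Zbtb4 fell most, followed by Zbtb38, Mbd1 and Mbd2, whereas Mbd4 rose. The differences were tested by limma on log2(value + 0.5), with Benjamini-Hochberg adjustment over 17297 genes and a threshold of 0.05. With that test 71.2% of all genes were called, 35.4% lower and 35.8% higher in Dnmt1_null cells, so that a call by itself does not set these genes apart. Their median log2 fold change was -0.44, against 0.01 for all genes tested. The groups did not overlap for 5 of the 6 genes, and this was so for 73.3% of all genes. No source says whether libraries of a group came from separate cultures, and the p-values therefore measure only the spread between these libraries.

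**Figure D1:**
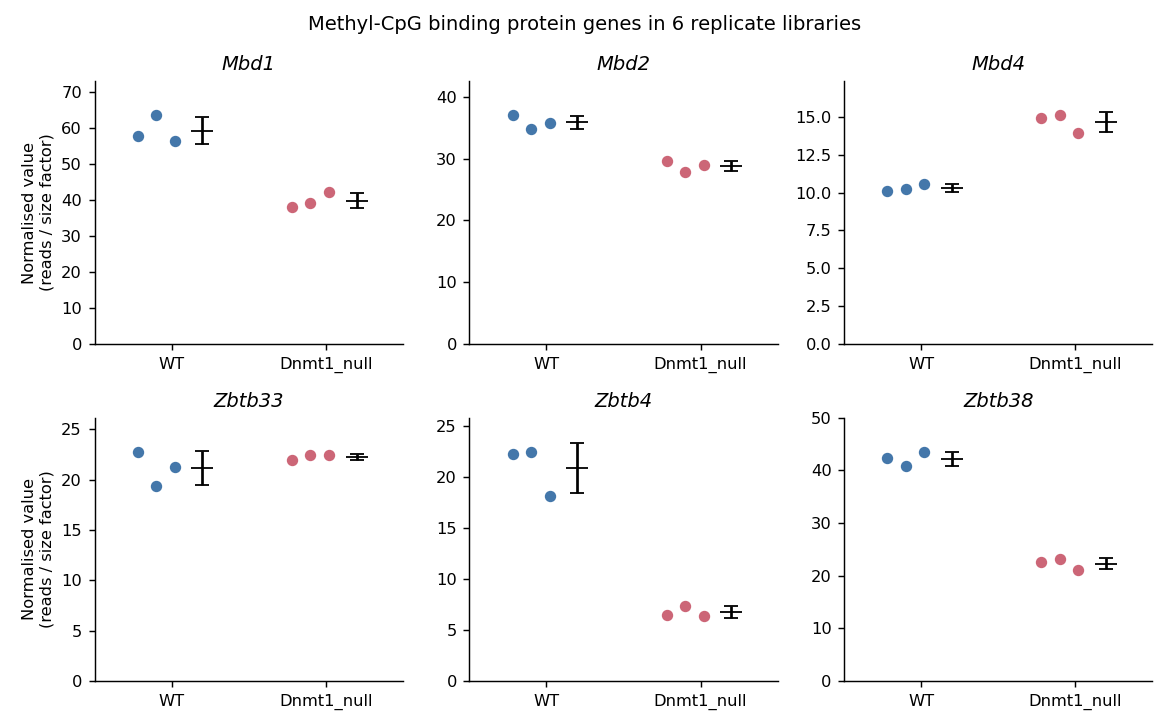
Normalised values of the 6 genes in the 3 WT and 3 Dnmt1_null libraries, with points for libraries and black bars for the mean and SD of each group; every vertical axis starts at 0. Dnmt1_null points lie below all WT points for Mbd1, Mbd2, Zbtb4 and Zbtb38, above them for Mbd4, and within their range for Zbtb33.

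Among the MBD genes, Mbd1 encodes a repressor that acts with the histone methyltransferase SETDB1. Its normalised value was 57.9, 63.6 and 56.5 in the WT libraries and 38.3, 39.3 and 42.3 in the Dnmt1_null libraries. The WT mean was 59.3 ± 3.75 (SD, n = 3) and the Dnmt1_null mean 39.9 ± 2.08 (SD, n = 3), with no overlap between the groups. The log2 fold change was -0.57 (SE 0.06, limma adjusted p = 7.2e-09), or 1.48-fold lower in Dnmt1_null cells.

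Mbd2, the NuRD subunit, changed least of the called genes. It stood at 37.0, 34.8 and 35.8 in WT and at 29.5, 27.9 and 29.0 in Dnmt1_null libraries. The lowest WT library was thus still above the highest Dnmt1_null library. The log2 fold change was -0.31 (SE 0.06, limma adjusted p = 5.3e-05), or 1.24-fold lower.

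Mbd4, the repair glycosylase, went the other way. WT libraries held 10.1, 10.2 and 10.6 normalised units and Dnmt1_null libraries 14.9, 15.1 and 13.9. All 3 Dnmt1_null libraries exceeded all WT libraries, and the log2 fold change was 0.49 (SE 0.08, limma adjusted p = 6.6e-06), or 1.40-fold higher. Mbd4 rested on fewer reads than the others in WT cells, 294 to 394 per library.

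Zbtb33, which encodes Kaiso, was the gene that did not pass the test. Its values were 22.7, 19.4 and 21.3 in WT and 21.9, 22.5 and 22.4 in Dnmt1_null libraries, so that the Dnmt1_null range lay inside the WT range. The log2 fold change was 0.08 (SE 0.07, limma adjusted p = 0.33). Its 95% interval ran from -0.07 to 0.22, equal to a fold of 0.955 to 1.17, which holds none of the estimates of the other 5 genes.

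Zbtb4 encodes a Kaiso-like repressor and had the largest change of the 6 genes. It stood at 22.2, 22.5 and 18.1 in WT libraries and at 6.48, 7.40 and 6.37 in Dnmt1_null libraries. WT replicate 3 was the lowest of the WT libraries and was still more than 2-fold above every Dnmt1_null library. The log2 fold change was -1.56 (SE 0.09, limma adjusted p = 1.9e-13), or 2.95-fold lower, and Zbtb4 alone of the 6 passed 2-fold. Coding genes of chromosome 11, where Zbtb4 lies, had a median log2 fold change of 0.38 in Dnmt1_null cells, and relative to that median Zbtb4 was at -1.94. The fibroblast markers fell in the same comparison, beside Zbtb4 as beside Mbd1, Mbd2 and Zbtb38. Their summed level was 1243, 1480.0 and 1022 in the WT libraries and 259, 273 and 245 in the Dnmt1_null libraries. In the single libraries, where those sums were 48.3 cpm in WT and 29.6 cpm in Dnmt1_null cells, Zbtb4 was again lower in Dnmt1_null cells, at a ratio of 0.477. In the dCas9 pair Zbtb4 was at 5.32 cpm under dCas9-OGA and 3.06 cpm under dCas9-OGA-D242A, and the summed markers were at 40.1 and 60.6 cpm. The markers did not move as one there. Col1a1 was at 10.0 and 22.9 cpm and Col1a2 at 2.58 and 10.5 cpm. Thy1 was at 22.8 and 23.3 cpm, Col3a1 at 4.15 and 3.26 cpm and Postn at 0.483 and 0.684 cpm. The part of the fibroblast markers in the Zbtb4 values was not tested.

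Zbtb38 encodes a Kaiso-like transcription factor and, at 11.7 kb, has the longest exon sequence of the 6 genes. It also fell in the replicate libraries, whereas in the single libraries its ratio of Dnmt1_null over WT was 2.39. Its values in the replicate libraries were 42.3, 40.8 and 43.5 in WT and 22.6, 23.1 and 21.1 in Dnmt1_null. The spread within each group was small beside the gap between them, and the log2 fold change was -0.91 (SE 0.06, limma adjusted p = 2.5e-12), or 1.88-fold lower.

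**Figure D2:**
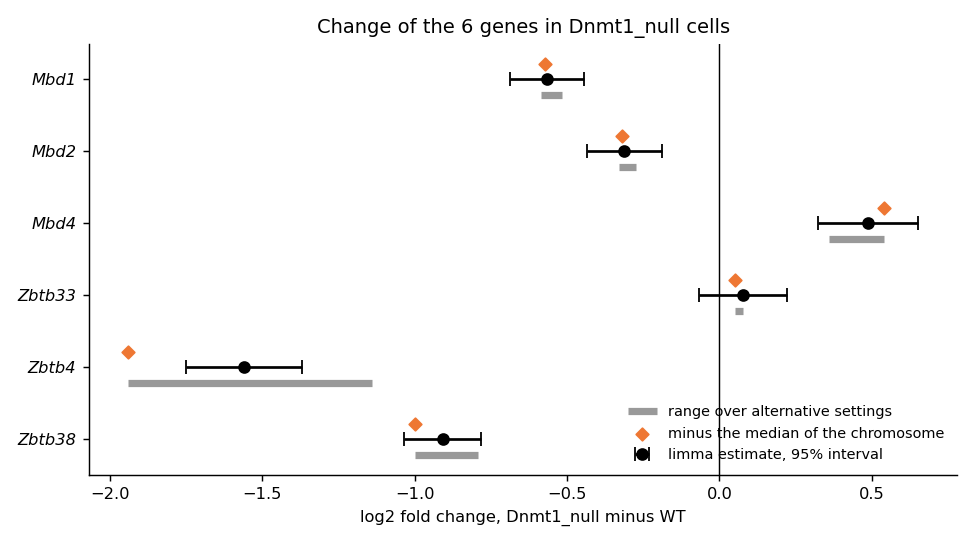
Log2 fold change of each gene, Dnmt1_null minus WT, by limma over 3 libraries a group with its 95% interval (black), the value after the median of the gene's chromosome is taken off (orange) and the range over alternative settings other than left-out libraries (grey). Zbtb4 stands farthest from 0 at -1.56, Mbd4 alone is above 0 with an interval that leaves out 0, and the interval of Zbtb33 holds 0.

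Levels between genes were compared per kilobase of exon. In WT cells Mbd2 was the most abundant of the 6 at 11.2 ± 0.335 normalised units per kb (SD, n = 3). It was followed by Mbd1 at 8.85 ± 0.560, Zbtb33 at 4.13 ± 0.326, Zbtb38 at 3.60 ± 0.117, Zbtb4 at 2.58 ± 0.302 and Mbd4 at 1.95 ± 0.0459. The median coding gene stood at 4.16 units per kb in WT, so that the Kaiso family and Mbd4 were expressed near or under it. In Dnmt1_null cells the order became Mbd2 at 8.96 ± 0.261, Mbd1 at 5.96 ± 0.311, Zbtb33 at 4.35 ± 0.0578, Mbd4 at 2.77 ± 0.120, Zbtb38 at 1.90 ± 0.0884 and Zbtb4 at 0.831 ± 0.0694. Mbd4 thus moved from the last place to the fourth in the replicate libraries, above Zbtb38 and Zbtb4. Within each replicate group no neighbours in the order overlapped, and the order was the same in 3 of 3 libraries. The summed level of the 6 genes per kb was 32.3 ± 0.598 in WT and 24.8 ± 0.131 in Dnmt1_null cells (SD, n = 3). The 3 Kaiso family genes made up 31.1% to 32.8% of that sum in WT and 27.9% to 29.5% in Dnmt1_null libraries. The order was another one in the single libraries. There Mbd4 stood at 1.91 cpm per kb in WT, rank 4, and at 1.67 in Dnmt1_null cells, rank 5, under Zbtb38, which stood at 1.07 and 2.57 cpm per kb. Mbd2 led in the single WT library at 7.93 cpm per kb, and Zbtb33 in the single Dnmt1_null library at 4.14.

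**Figure D3:**
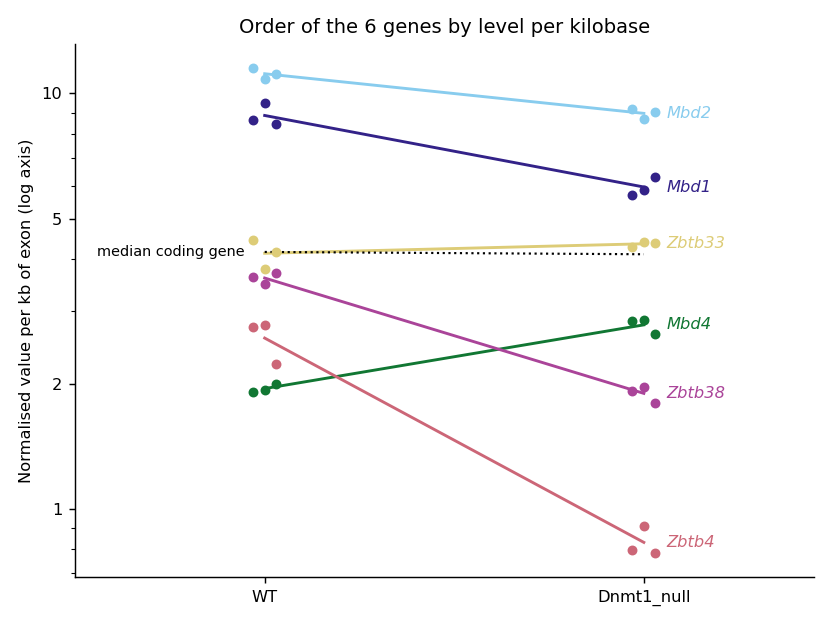
Normalised value per kilobase of exon on a log axis for the 6 genes in WT and Dnmt1_null cells, with points for the 3 libraries of a group, lines joining the group means and a dotted line for the median coding gene. Mbd2 and Mbd1 stay on top in both groups, while Mbd4 crosses Zbtb38 and Zbtb4, which end at 1.90 and 0.831.

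Partners and relatives of the 6 proteins moved in both directions. The counts that follow stand beside the 71.2% of all tested genes that were called, 35.8% higher and 35.4% lower, so that most of a list being called does not set it apart. Of 10 other genes with a methyl-CpG binding fold or an SRA domain, 4 rose and 4 fell in Dnmt1_null cells. Mbd3, the NuRD subunit related to Mbd2, fell from 199 to 144 normalised units (log2 fold change -0.46), and Setdb1, the histone methyltransferase that acts with MBD1, rose from 156 to 209 (0.41). Of 4 tested MBD1 partners, among them Setdb1, 2 rose and 2 fell, and Cbx5, which encodes heterochromatin protein HP1 alpha, fell from 408 to 291 (-0.49). Of 13 NuRD and arginine methylation partners of MBD2, 7 rose and 5 fell. The remodelling subunits Chd4 and Chd3 changed in opposite directions, Chd4 from 621 to 891 (0.52) and Chd3 from 80.9 to 39.0 (-1.04).

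Of 11 base excision and mismatch repair genes set beside Mbd4, 8 rose and 2 fell, with a median log2 fold change of 0.27 against 0.01 over all genes, of which 35.8% rose. Lig3, a DNA ligase of base excision repair, rose from 54.7 to 88.4 (0.69), and the endonuclease gene Apex1 fell from 70.4 to 38.7 (-0.86). Of 10 corepressor partners of the ZBTB proteins, 5 rose and 3 fell. The largest changes were those of Gps2, from 33.0 to 49.3 (0.57), and Sin3a, from 36.2 to 51.5 (0.50). Of 32 other ZBTB genes 27 were tested, and 9 rose and 6 fell. Zbtb20 and Zbtb7a fell most, from 12.4 to 4.60 (-1.34) and from 70.8 to 31.1 (-1.17). Lig3, Gps2 and Chd3 are on chromosome 11, whose median was 0.38. Relative to that median their log2 fold changes were 0.31, 0.19 and -1.42, which puts Gps2 under Sin3a at 0.41, and 7 in place of 8 of the 10 corepressor partners were called.

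In the single libraries, all 6 genes were higher in cells with dCas9-OGA than in cells with the inactive dCas9-OGA-D242A, and Mbd2 differed most before the chromosome medians were taken off. There was 1 library of each kind, so no test was made, and the 95% intervals given (exact Clopper-Pearson) cover counting error only. Past 2-fold in either direction on the log2(cpm + 0.5) scale were 12.1% of 12722 genes, and of the 6 genes only Mbd2 was. Mbd2 had 661 counts (26.6 cpm) with dCas9-OGA and 269 counts (10.8 cpm) with dCas9-OGA-D242A, a ratio of 2.46 (2.13 to 2.85). On that scale this was a difference of 1.26, and with 5 cpm added in place of 0.5 it was 0.999, just under 2-fold. Zbtb4 was at 5.32 cpm against 3.06 cpm, a ratio of 1.74 (1.30 to 2.34). Zbtb38 was at 37.3 against 23.4 cpm, a ratio of 1.59 (1.44 to 1.77). Mbd4 (21.1 against 13.4 cpm, ratio 1.57, 1.36 to 1.80) and Zbtb33 (36.5 against 23.7 cpm, ratio 1.54, 1.39 to 1.72) were close to it. Mbd1 differed least, with 11.2 against 8.93 cpm and a ratio of 1.25 (1.05 to 1.50). The median log2 ratio of the 6 genes was 0.65, against 0.03 over all genes compared. Of all genes compared, 27.1% had a higher ratio than Mbd1 and 2.91% a higher ratio than Mbd2. The share of all genes that were higher with dCas9-OGA was not counted, so that all 6 being higher does not by itself set them apart. Median log2 ratios of coding genes differed between chromosomes. They were 0.40 on chromosome 1, -0.47 on chromosome 8 and, over 4 genes, -4.59 on chromosome Y, which hold none of the 6 genes. On chromosome 11 the median log2 ratio of coding genes was -0.46, and Zbtb4 was at 0.71 and, relative to that median, at 1.17, past 2-fold. Relative to the median of chromosome 18, Mbd2 was at a log2 ratio of 1.13, so that Zbtb4 then stood above it, and Mbd1 was at 0.18 in place of 0.31. With 5 cpm added in place of 0.5, the log2 ratio of Zbtb4 was 0.36. Cell markers differed too. Summed ES cell markers were at 3554 cpm with dCas9-OGA and 2524 cpm with dCas9-OGA-D242A, but Zfp42 among them was at 420 and 494 cpm. Fibroblast markers summed to 40.1 and 60.6 cpm. Primitive endoderm markers summed to 28.5 and 10.2 cpm, with Sox7 at 9.67 and 0.161 cpm and Gata4 at 6.73 and 5.43 cpm. The part of these markers in the ratios of the 6 genes was not tested.

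In the other pair of single libraries, 17.4% of 12593 genes were past 2-fold between Dnmt1_null and WT cells on the log2(cpm + 0.5) scale, and of the 6 genes Mbd2 and Zbtb38 were. Mbd2 was at 9.78 cpm in Dnmt1_null and 25.5 cpm in WT cells, a ratio of 0.384 (0.324 to 0.453). Mbd1 (12.8 against 24.6 cpm, ratio 0.522) and Zbtb4 (2.79 against 5.85 cpm, ratio 0.477) were also lower in the Dnmt1_null library, and their counting intervals ended at 0.606 and 0.657. The Zbtb4 ratio without a pseudocount is past 2-fold, but its difference on the log2(cpm + 0.5) scale was -0.95. With 0.1 cpm added that difference was -1.04, with upper quartile factors -1.03 and relative to the chromosome median -1.10, each past 2-fold. Zbtb33 was at 21.2 against 20.5 cpm, a ratio of 1.04 (0.907 to 1.18). Its log2 ratio of 0.05 turned to -0.04 with upper quartile factors and to -0.06 relative to the chromosome median, so that no direction is given. Mbd4 was at 8.84 against 10.1 cpm, a ratio of 0.876 (0.716 to 1.07) whose interval holds 1.

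Zbtb38 was higher in the single Dnmt1_null library, with 30.1 cpm against 12.6 cpm in WT and a ratio of 2.39 (2.08 to 2.76). That is the reverse of the replicate libraries. Its log2 ratio of 1.23 became 0.999, just under 2-fold, with 5 cpm added in place of 0.5. The single WT library had the lowest Zbtb38 value of the 4 single libraries, and it also stood apart in the 2-cell-like state markers, which summed to 29.7 cpm there and to between 0.403 and 1.37 cpm in the other 3. Primitive endoderm markers summed to 37.7 cpm in the single WT and 12.6 cpm in the single Dnmt1_null library, again the reverse of the replicate libraries. The few coding genes of chromosome Y also differed in direction. Their median of Dnmt1_null against WT was 3.82 in log2 over 5 genes in this pair and -1.43 over 9 genes in the replicate libraries. ES cell markers summed to 3099 cpm in the single WT and 2468 cpm in the single Dnmt1_null library, but Zfp42 among them was at 278 and 482 cpm. The part of these markers in the values of the 6 genes in this pair was not tested. The submitters' notes name different aligners for the replicate and the dCas9 libraries, and the tables were normalised apart, so that levels were not compared across them.

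**Figure D4:**
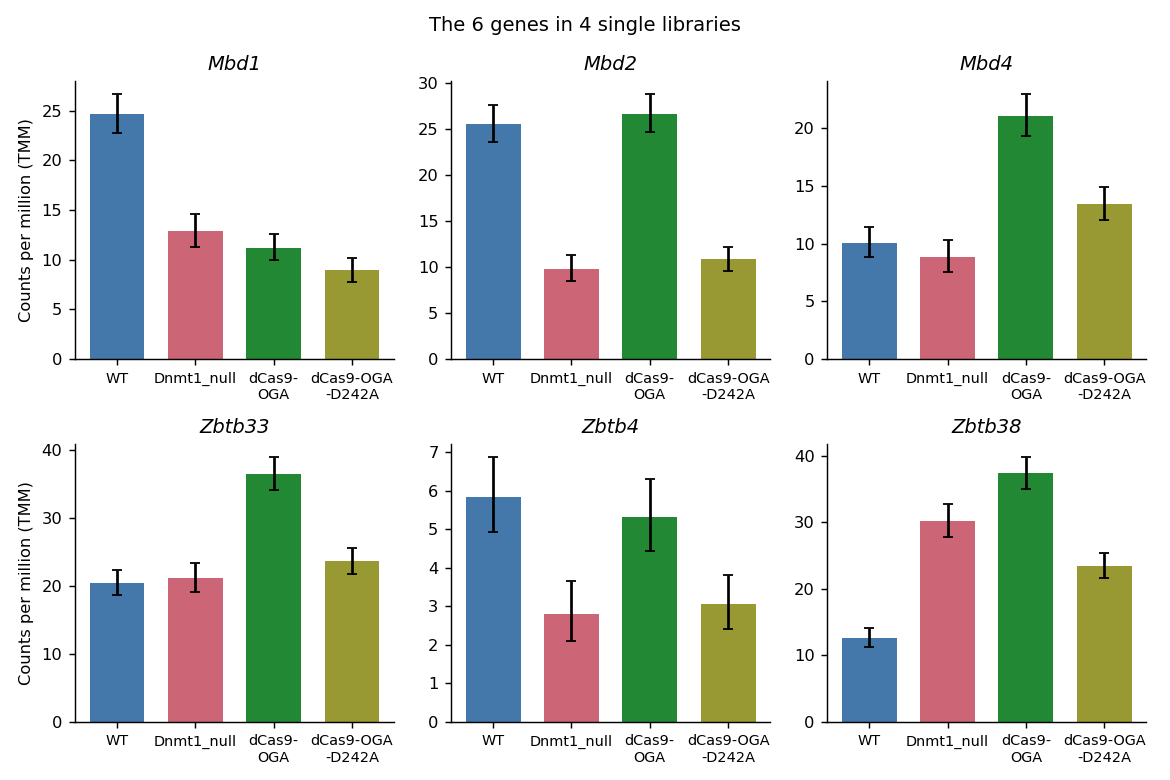
Library-size scaled counts (cpm) of the 6 genes in the 4 single libraries, with bars from 0 and exact 95% intervals for counting error only. Each gene is higher with dCas9-OGA than with dCas9-OGA-D242A, and Zbtb38 is lowest in the WT library at 12.6 cpm.

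The genes whose profiles lay nearest to each member were found over 10 libraries and 12786 genes, by the root mean square distance of log2 values centred within each table. Nearest to Mbd1 were Cdsn, D230025D16Rik and Ppp1r15a, and nearest to Mbd2 were Plekhg3, Pid1 and Gprc5a. AW554918, Mical3 and Arhgap26 lay nearest to Mbd4, and Snhg6, Sdhc and Mccc1 to Zbtb33. Ptgs1, Mmp14 and Mir9-3hg lay nearest to Zbtb4, and Zfp948, Clk1 and Atp6v1h to Zbtb38. Distances of these genes ran from 0.066 for Cdsn to 0.156 for Mir9-3hg. No member was among the nearest 3 of another, which says little with 3 places among 12786 genes. The closest pair of members, Mbd4 and Zbtb33, lay 0.205 apart. The median distance of all genes was 0.436 from Mbd4 and 0.358 from Zbtb33.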

How the data were processed

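RNA-seq values deposited by the authors were used as they stood. For the 4 single libraries the authors deposited counts per Ensembl gene, and for the 6 replicate libraries a signal, which is counts divided by a scaled library size. Their file headers did not match the columns, and values were taken by position. Reads were mapped to mm10 and counted with featureCounts 1.5.0, and the submitters' processing notes name HISAT2 2.1.0 for the replicate and TopHat2 2.0.11 for the dCas9 libraries. Strand use in counting is not given in the sources used here. Whole reads were recovered from 100% of values (tolerance 0.05).

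Genes passing edgeR 4.0.16 filterByExpr were fitted with limma 3.58.1 (trend), and DESeq2 1.42.0 and edgeR quasi-likelihood on recovered reads were alternatives. Single libraries were scaled by TMM, with 100 counts summed over a pair required. Exon lengths came from GENCODE, which held 26679 of 26797 and 49326 of 49671 identifiers. Programs were tested on simulated data. The 6 genes and all lists were chosen with earlier results of these data known. Named were the 6 genes, Dnmt1, the 3 nearest profiles of each and the 2 called genes of each list with the largest change. Intervals of the single libraries cover counting error only, and those of limma the spread between replicate libraries.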

Additional observations from a re-analysis of the deposited data

Results flagged for a closer look

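Zbtb38 went in opposite directions between Dnmt1_null and WT cells in the replicate and the single libraries. The rise of Mbd4 in the replicate libraries was not seen in the single libraries, where no direction is given for it. Zbtb38 had a log2 fold change of -0.91 over the 3 replicates a group, in which it fell, and a log2 ratio of 1.23 in the single libraries. Mbd4 had 0.49 in the replicate libraries, in which it rose, and -0.18 in the single libraries, where the counting interval of its ratio holds 1. These differences between the library sets were not tested, since the single set has 1 library of each kind, whose columns carry only the group name and match no labelled sample of their own.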

How the results depend on the processing

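The count of 5 called genes and the direction of each change were the same under all alternatives tried for the replicate libraries: pseudocounts of 0.1 and 5, no filter, a mean value of at least 5, edgeR, DESeq2, TMM scaling, subtraction of the chromosome median and each library left out. Without 1 library at a time, the log2 fold change ran from -0.61 to -0.52 for Mbd1, -0.33 to -0.29 for Mbd2, 0.47 to 0.52 for Mbd4, 0.02 to 0.13 for Zbtb33, -1.66 to -1.51 for Zbtb4 and -0.93 to -0.87 for Zbtb38. Replicate numbers share only a number: same-numbered libraries had deviations correlated at 0.074, -0.016 and 0.065, and the fit with the replicate block also called 5 of the 6 genes. In the single libraries, 5 cpm added in place of 0.5 gave log2 ratios of 0.999 for Mbd2 and 0.36 for Zbtb4 (dCas9-OGA over dCas9-OGA-D242A) and, for Dnmt1_null over WT, -1.04 for Mbd2, -0.48 for Zbtb4 and 0.999 for Zbtb38, smaller by the construction of the pseudocount. Zbtb4 in that pair, at -0.95 and so under 2-fold, passed it at -1.04 with 0.1 cpm, -1.03 with upper quartile factors and -1.10 relative to the chromosome median. Relative to the chromosome median, the log2 ratio of dCas9-OGA over dCas9-OGA-D242A was 1.17 for Zbtb4, 1.13 for Mbd2, 0.51 for Zbtb38 and 0.18 for Mbd1. The small Dnmt1_null over WT log2 ratio of Zbtb33 turned from 0.05 to -0.04 with upper quartile factors and -0.06 relative to the chromosome median. Zbtb4 had 53 to 145 counts in the single libraries, the fewest of the 6 genes, which limits its ratios most.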
